A study of Mus musculus with 6 samples.

Results

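Prostaglandins, thromboxane and leukotrienes are signalling lipids made from arachidonic acid, and 10 genes of their synthesis were examined in RNA-seq libraries labelled as liver sinusoidal endothelial cells (LSECs). The genes were chosen by name as the enzymes and helper protein of this pathway (Pla2g4a, Ptgs1, Ptgs2, Ptges, Hpgds, Tbxas1, Hpgd, Alox5, Alox5ap and Ltc4s). They are 10 of the 60832 genes in the count table, and all 10 passed the filter on low counts, which left 15474 genes. The libraries came from male BALB/c-Nu mice, a strain without a thymus, aged 4 to 6 weeks at purchase, that carried liver metastases grown from HCT116, a human colorectal cancer cell line injected into the liver. There were 3 libraries from bevacizumab-sensitive xenografts and 3 from bevacizumab-resistant xenografts, and bevacizumab is an antibody against VEGF-A. By the study's account, resistance was acquired under bevacizumab at 10 mg/kg, given for 7 weeks by its Methods and for 42 days by its Results, and vehicle-treated mice received IgG. The labels do not name the treatment of the mice in the sensitive group. In both groups the cells had been taken with anti-CD146 beads, at a stated purity above 95%, and cultured for 24 h. Whether each library was from 1 mouse or from pooled mice is not given in the sources used here, so p-values measure the spread between these libraries.

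In this pathway, cytosolic phospholipase A2 frees arachidonic acid from membranes, and the cyclooxygenases turn it into prostaglandin H2. Terminal synthases then make prostaglandin E2, prostaglandin D2 or thromboxane A2, and a dehydrogenase inactivates prostaglandins. In the other arm, 5-lipoxygenase, aided by its activating protein, makes leukotriene A4, which becomes leukotriene B4 or is joined to glutathione as leukotriene C4. In the liver, Kupffer cells are known as a major source of prostaglandins and thromboxane, and neutrophils and other myeloid cells are known for 5-lipoxygenase.

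Counts on genes summed to between 17599326 and 20726684 per library, so that 3 counts equalled 0.145 to 0.170 CPM (counts scaled to the library total), a floor for counting error only. The libraries labelled as LSECs held LSEC markers, with a sum of 617 to 1188 CPM over 10 genes, and 12 markers of endothelial cells in general summed to between 74.0 and 479.6 CPM, while 14 macrophage and Kupffer cell markers summed to between 25952 and 38950.2 CPM. A total for 10 neutrophil markers ran from 120.5 to 6105 CPM. Sensitive replicate 2 stood apart, with correlations of log2 CPM to the other libraries of 0.860 to 0.901, against 0.954 to 0.974 among the rest. In such bulk RNA, fewer cells of a type and less RNA per cell cannot be told apart.

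The promoters of 5 genes are shown because these genes gave the steadiest levels (Ptgs1, Hpgds and Tbxas1) and the most variable ones (Ptgs2 and Alox5). Each sequence holds the 250 bases before the RefSeq start of the gene, 5′ to 3′ on the strand of the gene, from RefSeq on build GRCm38.p6. Capitals mark matches, on either strand, to TATAAA, a core promoter element, to GGGCGG, the letters of Sp1 binding sites, and to GAGGAA, the core letters bound by PU.1, a myeloid transcription factor.
Ptgs1: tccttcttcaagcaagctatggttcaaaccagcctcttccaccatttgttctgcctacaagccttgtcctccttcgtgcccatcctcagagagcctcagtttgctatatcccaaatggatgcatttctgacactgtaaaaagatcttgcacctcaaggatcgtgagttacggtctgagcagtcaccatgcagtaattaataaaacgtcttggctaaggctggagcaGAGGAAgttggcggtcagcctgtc
Ptgs2: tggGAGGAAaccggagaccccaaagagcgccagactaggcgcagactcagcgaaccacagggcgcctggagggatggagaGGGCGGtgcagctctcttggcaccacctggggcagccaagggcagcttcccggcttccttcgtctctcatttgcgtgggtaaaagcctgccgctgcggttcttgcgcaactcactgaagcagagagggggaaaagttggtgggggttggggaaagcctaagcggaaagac
Hpgds: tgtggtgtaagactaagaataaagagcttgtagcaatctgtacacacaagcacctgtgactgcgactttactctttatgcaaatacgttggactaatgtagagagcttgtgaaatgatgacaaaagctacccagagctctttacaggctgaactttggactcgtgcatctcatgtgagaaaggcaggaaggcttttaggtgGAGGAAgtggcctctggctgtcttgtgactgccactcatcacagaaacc
Tbxas1: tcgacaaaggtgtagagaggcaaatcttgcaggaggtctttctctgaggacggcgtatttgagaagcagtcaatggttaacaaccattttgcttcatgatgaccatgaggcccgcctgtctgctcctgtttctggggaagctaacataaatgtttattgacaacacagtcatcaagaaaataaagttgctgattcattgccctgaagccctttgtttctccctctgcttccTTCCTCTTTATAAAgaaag
Alox5: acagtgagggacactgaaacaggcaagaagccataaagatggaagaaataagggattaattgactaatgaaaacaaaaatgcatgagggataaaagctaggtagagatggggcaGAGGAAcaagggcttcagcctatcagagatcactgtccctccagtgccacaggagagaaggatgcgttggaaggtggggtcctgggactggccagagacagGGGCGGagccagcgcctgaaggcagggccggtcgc
The windows lie at chr2:36230176-36230425 (plus strand) for Ptgs1, chr1:150099781-150100030 (plus) for Ptgs2, chr6:65144731-65144980 (minus) for Hpgds, chr6:38918736-38918985 (plus) for Tbxas1 and chr6:116461179-116461428 (minus) for Alox5. The gene coordinates given further below are spans of GENCODE M21, whose starts can differ from those of RefSeq. The Tbxas1 window lies inside the span of its gene, and the Hpgds window overlaps the span of its gene.

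A RefSeq promoter was matched for 9 of the 10 genes, with Alox5ap the exception. A gene was counted if any of its windows held a match, and Pla2g4a had 2 windows. The shares of all promoters are per window. GAGGAA was present in 7 of the 9 (Ptgs1, Ptgs2, Ptges, Hpgds, Tbxas1, Alox5 and Hpgd), against 23.3% of 32851 mouse promoter windows of this length. The match lay 24 bases before the RefSeq start in Ptgs1, 49 in Hpgds and 19 in Tbxas1, counted from the first base of the match, and 247 in Ptgs2 and 136 in Alox5. GGGCGG was present in 4 of the 9 (Ptgs2, Ptges, Alox5 and Hpgd), against 32.7% of all windows. TATAAA was present in 2 of the 9 against 12.4%, with a pair of overlapping matches in Tbxas1, which follow directly on its GAGGAA match in one run of capitals, and a match in the second of the 2 windows listed for Pla2g4a. The cAMP response element letters TGACGTCA, their shorter part TGACG, the E-box letters CACGTG and the letters CCAAT had no match in the 9 genes, and were found in 1.55%, 17.8%, 6.02% and 33.8% of all windows. The matches describe letters in these windows, and binding was not measured.

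Per unit of length, the 2 most abundant genes were one from each arm of the pathway. FPKM, the authors' deposited counts scaled to library total and gene length, averaged 99.4 for Alox5ap (range 56.2 to 155.8 over the 6 libraries) and 85.1 for Ptgs1 (66.2 to 117.8), above 97.0% and 96.4% of the tested genes. Hpgd averaged 29.7 FPKM, Tbxas1 23.0, Hpgds 14.7 and Pla2g4a 10.6. The lowest mean levels were those of Ptgs2 at 4.66 FPKM, Alox5 at 3.34, Ptges at 3.28 and Ltc4s at 1.46, with Ltc4s above 28.8% of the tested genes. The ranges of neighbours in this order overlapped, except those of Ptgs1 and Hpgd.

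The place of Tbxas1 in this order depended on the length used. The FPKM values use all exons of a gene joined together, which for Tbxas1 comes to 9094 bases, while its principal mRNA has 1990. Divided by the length of the principal mRNA, a calculation added after the data were seen, Tbxas1 came to 105.2 CPM per kilobase, beside 115.2 for Ptgs1 and 112.8 for Alox5ap. On that scale these 3 genes were the highest, and Hpgds came to 27.2 and Pla2g4a to 23.8. The counts were still those over all exons of a gene. Reads outside the principal mRNA were not removed, so these values can be too high, above all for Tbxas1.

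**Figure D1:**
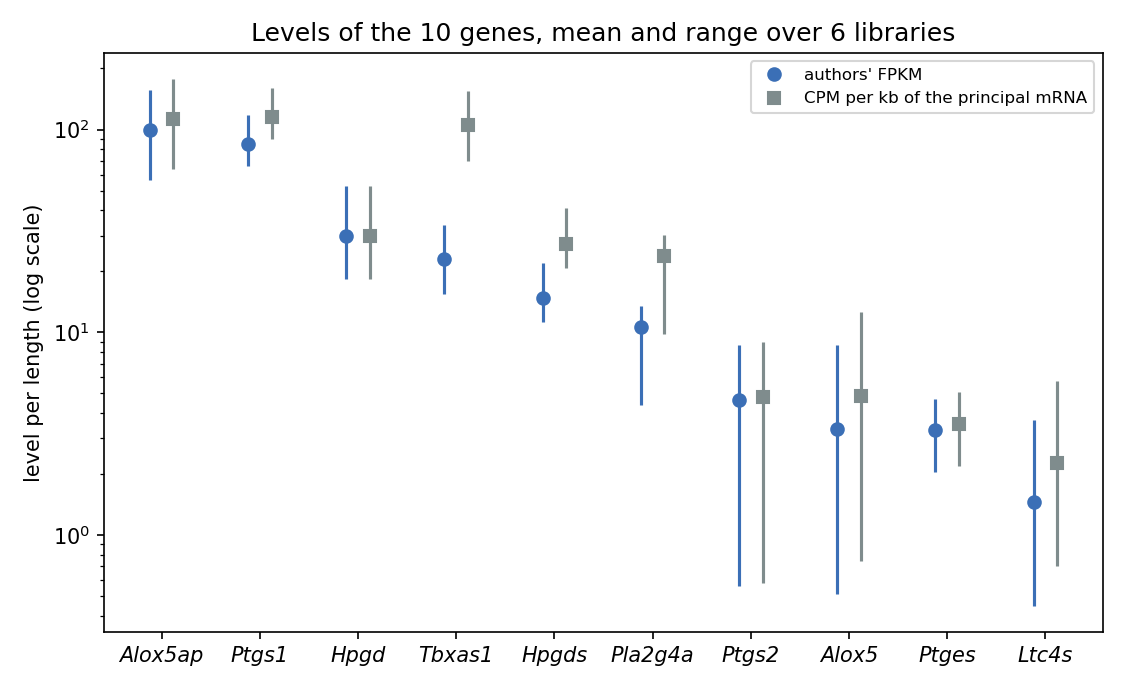
Level per length of each gene on a log axis, as the mean (point) and the lowest and highest of 6 libraries (line), in the authors' FPKM (circles) and in CPM per kilobase of the principal mRNA (squares). Alox5ap and Ptgs1 are highest in FPKM, Ltc4s is lowest on both scales, and Tbxas1 moves from 23.0 FPKM to 105.2 CPM per kilobase. Both scales use counts over all exons of a gene.

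Whether these genes differ between the libraries labelled as LSECs from resistant and from sensitive xenografts was asked with edgeR's quasi-likelihood test on the counts. None of the 10 genes passed the threshold of 0.05 on the adjusted p-value, and none had an unadjusted p-value under 0.05. In the whole table the test called 0 of 15474 genes after adjustment, or 0%, and 476, or 3.08%, at an unadjusted p-value under 0.05 (0.536% higher and 2.54% lower in the resistant group). DESeq2's test also called none of the 10 genes on either p-value, and it called 24 genes of 15448 after adjustment (0.155%). The 10 genes had a median log2 fold change, resistant over sensitive, of -0.047, beside 0.008 over all tested genes, with 4 genes above 0 and 6 below (50.8% of all genes were above 0).

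Pla2g4a (ENSMUSG00000056220, chr1:149829618-149961290) encodes cytosolic phospholipase A2, which supplies arachidonic acid to both arms. It measured 70.1, 27.9 and 67.0 CPM in sensitive replicates 1, 2 and 3 and 85.0, 85.9 and 72.3 CPM in the resistant replicates. The resistant libraries were the 3 highest, and sensitive replicate 2 lay far below the rest. The means were 55.0 ± 23.5 and 81.0 ± 7.62 CPM (SD, n = 3 each), and edgeR gave a log2 fold change of 0.53 (SE 0.309, 95% interval -0.20 to 1.26, adjusted p = 0.940). The exact two-sided permutation test gave p = 0.1, the smallest that 3 against 3 libraries allow. Pla2g4a was 1 of 10 genes whose groups did not overlap, beside 9.02% of all tested genes, and 4.69% with the resistant group higher. Without sensitive replicate 2 the log2 fold change was 0.24.

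Ptgs1 (ENSMUSG00000047250, chr2:36230426-36252272) encodes cyclooxygenase 1, the form present in most cells without a stimulus. Its CPM were 277.9, 342.6 and 348.4 in the sensitive replicates and 457.5, 298.4 and 257.3 in the resistant ones. Resistant libraries were both the highest and the lowest of the 6, and the groups overlapped fully. The log2 fold change was -0.024 (SE 0.275, 95% interval -0.67 to 0.63, edgeR adjusted p = 0.988), and its sign changed with the scaling, to 0.06 with library totals alone. Of the 10 genes, Ptgs1 varied least, by 1.78-fold from the lowest to the highest library, and 71.0% of the tested genes had a larger SD of log2 CPM.

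Ptgs2 (ENSMUSG00000032487, chr1:150100031-150108227) encodes cyclooxygenase 2, the form known to be induced by inflammatory signals and growth factors. In sensitive replicates 1, 2 and 3 it measured 39.7, 12.05 and 2.58 CPM (780, 212 and 53 counts), and in the resistant replicates 29.5, 21.9 and 22.2 CPM. The sensitive group held the highest and the 2 lowest libraries, while the resistant libraries lay close together between them. The log2 fold change was 0.42 (SE 0.778, 95% interval -1.42 to 2.25, edgeR adjusted p = 0.941). It was -0.090 without sensitive replicate 3 and 1.56 without sensitive replicate 1, so 1 library decided its direction. Over the 6 libraries Ptgs2 spanned 15.4-fold, and only 7.32% of the tested genes had a larger SD of log2 CPM.

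Ptgs1 exceeded Ptgs2 in every library in FPKM, by 8.25-, 33.5- and 159.3-fold in the sensitive replicates and by 18.3-, 16.1- and 13.7-fold in the resistant ones. Pla2g4a and Ptgs2 are neighbours on chromosome 1 that point away from each other, with starts 138741 bases apart and 0 protein-coding genes between them. Their libraries fell in different orders, and sensitive replicate 1 was highest for Ptgs2 but below all 3 resistant libraries for Pla2g4a.

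Among the terminal synthases, Tbxas1 (thromboxane A synthase) and Hpgds (the hematopoietic prostaglandin D synthase) were far above Ptges (the inducible microsomal prostaglandin E synthase) in CPM per kilobase and in FPKM. Tbxas1 (ENSMUSG00000029925, chr6:38875404-39084585) measured 182.4, 139.8 and 308.8 CPM in the sensitive replicates and 220.7, 213.4 and 190.6 CPM in the resistant ones. Hpgds (ENSMUSG00000029919, chr6:65117293-65144908) measured 82.6, 72.2 and 141.9 CPM and 89.1, 98.8 and 83.7 CPM. Both genes were highest in sensitive replicate 3 and lowest in sensitive replicate 2, with the resistant libraries in between. The fitted difference on the log2 scale was -0.069 for Tbxas1 (SE 0.292, 95% interval -0.76 to 0.62, edgeR adjusted p = 0.970). For Hpgds it was -0.18 (SE 0.279, 95% interval -0.84 to 0.47, edgeR adjusted p = 0.940). Without sensitive replicate 3 both turned positive, to 0.31 and 0.16, and the sign for Tbxas1 also turned on log2(FPKM + 1), to 0.06.

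Tbxas1 and Hpgds had the highest correlation of log2 CPM among the 45 pairs of the 10 genes, with Pearson's r of 0.941 over 6 libraries. It was 0.976 without sensitive replicate 2 and 0.716 without sensitive replicate 3. The most negative pair was Ptgs2 with Hpgds, at -0.900, which came to -0.246 without sensitive replicate 3, the library with the lowest Ptgs2 and the highest Hpgds. These values describe 6 libraries that all pairs share and that differ in cell markers. The span of Tbxas1 also overlaps that of Hipk2, a protein-coding gene on the opposite strand. Over the whole gene, Hipk2 held 1234, 166 and 2161 counts in the sensitive replicates and 1599, 1251 and 1187 in the resistant ones. Whether exons of the 2 genes overlap, and by how much, was not measured. The library kit's use of strand is not given in the sources used here, so any reads from the overlap of Tbxas1 and Hipk2 cannot be told apart.

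Ptges (ENSMUSG00000050737, chr2:30889471-30929863) was low and narrow. It measured 13.4, 11.6 and 8.03 CPM in the sensitive replicates and 12.2, 13.7 and 18.4 CPM in the resistant ones. The 2 highest libraries were resistant and the 2 lowest sensitive, with sensitive replicate 1 above resistant replicate 1. Its log2 fold change was 0.36 (SE 0.309, 95% interval -0.37 to 1.09, edgeR adjusted p = 0.940). In FPKM, Tbxas1 exceeded Ptges by 4.48- to 16.6-fold and Hpgds exceeded it by 2.78- to 10.8-fold over the 6 libraries.

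Hpgd (ENSMUSG00000031613, chr8:56294585-56321043) encodes the dehydrogenase that begins the inactivation of prostaglandins. Its CPM were 38.0, 31.0 and 53.5 in the sensitive replicates and 44.4, 44.7 and 88.3 in the resistant ones. Resistant replicate 3 was the highest library by a wide margin and sensitive replicate 3 came next, so the groups overlapped. Resistant over sensitive, the log2 fold change was 0.48 (SE 0.345, 95% interval -0.34 to 1.29, edgeR adjusted p = 0.940), and 0.07 without resistant replicate 3.

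**Figure D2:**
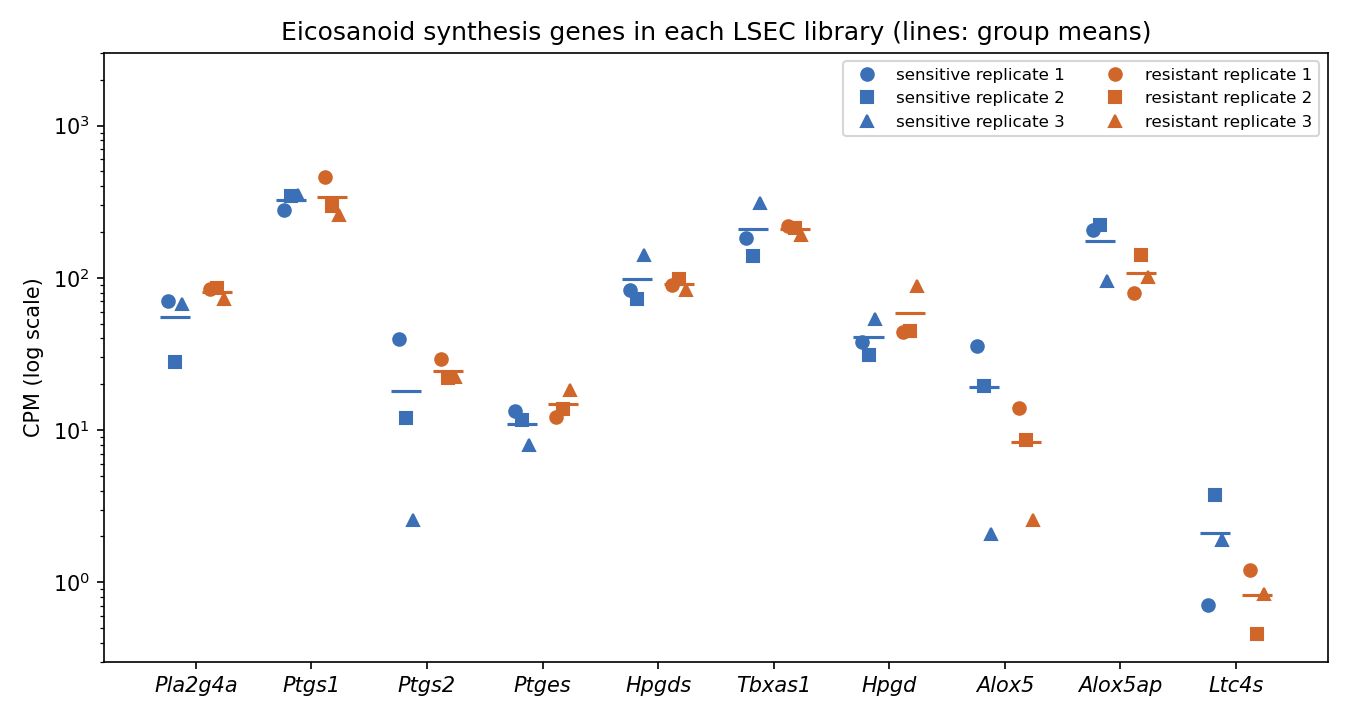
CPM of each gene (log axis) in the 3 sensitive (blue) and 3 resistant (orange) libraries, with a line at each group mean and a symbol for the replicate number. Ptgs2 and Alox5 spread over more than a factor of 10 between libraries, Ptgs1 spreads least, and Pla2g4a is the gene whose groups do not overlap.

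The 3 leukotriene genes had the lowest log2 fold changes of the 10, none past the test. Alox5 (ENSMUSG00000025701, chr6:116410077-116461178) encodes 5-lipoxygenase. It measured 35.7, 19.5 and 2.09 CPM in the sensitive replicates (701, 343 and 43 counts) and 13.9, 8.65 and 2.55 CPM in the resistant ones (288, 171 and 49 counts). Sensitive replicates 1 and 2 were highest, while sensitive replicate 3 and resistant replicate 3 were nearly equal and lowest. The log2 fold change was -1.25 (SE 0.946, 95% interval -3.48 to 0.98, edgeR adjusted p = 0.940). It was -1.78 without sensitive replicate 3 (unadjusted p = 0.0273, edgeR adjusted p = 0.659, in a fit where 6.53% of all genes had an unadjusted p-value under 0.05) and -0.58 without sensitive replicate 1. Alox5 spanned 17.1-fold, the widest range of the 10 genes, and 3.92% of the tested genes had a larger SD of log2 CPM.

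The libraries with high Alox5 also held high neutrophil markers. The 10 markers, none at 0 in every library, summed to 3921, 6105 and 149.0 CPM in the sensitive replicates and 1613, 754.5 and 120.5 CPM in the resistant ones. In both measures sensitive replicates 1 and 2 and resistant replicates 1 and 2 were the 4 highest libraries, and the replicates numbered 3 were the lowest. The neutrophil sum was highest in sensitive replicate 2 and Alox5 in sensitive replicate 1. The part of these cells in the Alox5 values was not tested.

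Alox5ap (ENSMUSG00000060063, chr5:149264767-149288153) encodes the membrane protein that presents arachidonic acid to 5-lipoxygenase. It measured 207.4, 221.3 and 96.0 CPM in the sensitive replicates and 79.8, 140.4 and 101.8 CPM in the resistant ones. The sensitive group held the 2 highest libraries, but its replicate 3 lay below 2 of the 3 resistant libraries. The log2 fold change was -0.78 (SE 0.399, 95% interval -1.72 to 0.16, edgeR adjusted p = 0.940). Without sensitive replicate 3 it was -1.07 (unadjusted p = 0.0145, edgeR adjusted p = 0.659, in that same fit), and without sensitive replicate 2 it was -0.47.

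Alox5ap was above Alox5 in every library, and the ratio was uneven. In FPKM the ratio was 16.8, 32.8 and 132.7 in the sensitive replicates and 16.6, 46.9 and 115.5 in the resistant ones. It was highest in the replicates numbered 3, where Alox5 was lowest. Pearson's r of log2 CPM between Alox5 and Alox5ap was 0.645 over 6 libraries.

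Ltc4s (ENSMUSG00000020377, chr11:50236461-50238616) encodes leukotriene C4 synthase, which joins glutathione to leukotriene A4. It had 14, 66 and 39 counts in the sensitive replicates, or 0.71, 3.75 and 1.90 CPM, and 25, 9 and 16 counts in the resistant ones, or 1.21, 0.46 and 0.83 CPM. Sensitive replicates 2 and 3 were highest and sensitive replicate 1 lay among the resistant libraries. For Ltc4s the log2 fold change was -1.49 (SE 0.767, 95% interval -3.30 to 0.32, edgeR adjusted p = 0.940). It was -0.68 without sensitive replicate 2 and -1.92 without sensitive replicate 1 (unadjusted p = 0.0284, edgeR adjusted p = 0.849, in a fit where 3.76% of all genes had an unadjusted p-value under 0.05). A gene on the opposite strand, Gm26542, overlaps Ltc4s and held 4 to 13 counts per library.

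**Figure D3:**
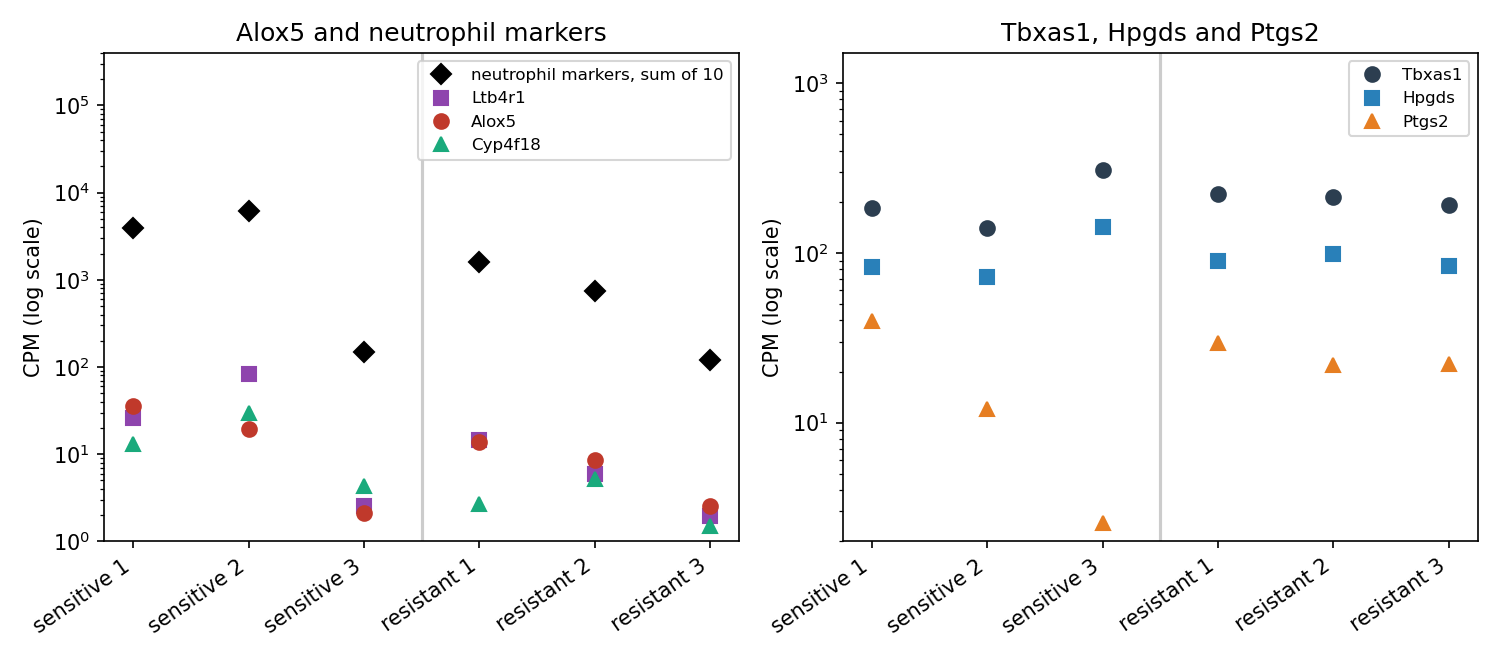
CPM per library (log axis). At left, Alox5, Ltb4r1 and Cyp4f18 with the sum of 10 neutrophil markers, and at right, Tbxas1, Hpgds and Ptgs2. Alox5 and the neutrophil sum are lowest in the replicates numbered 3, and sensitive replicate 3 has the highest Tbxas1 and Hpgds and the lowest Ptgs2.

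**Figure D4:**
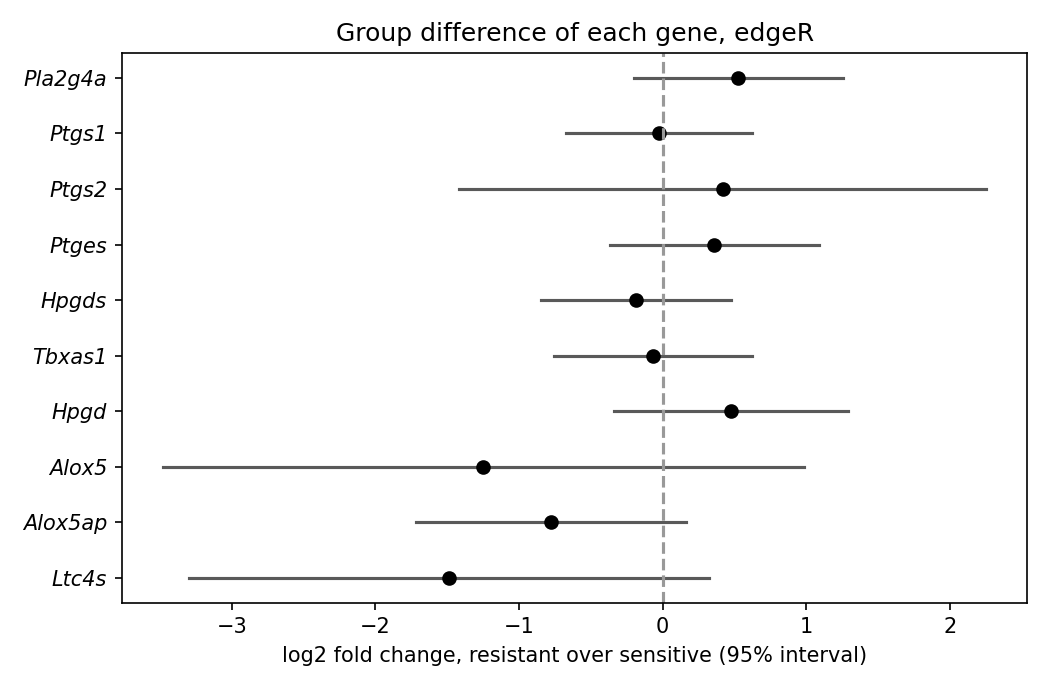
Log2 fold change of each gene, resistant over sensitive, from edgeR (point) with its 95% interval (line). All 10 intervals include 0, from the narrowest, of Ptgs1, to the widest, of Alox5.

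Markers of other cells known for these enzymes were summed in the same way. Mast cells and basophils are known for Hpgds and Ltc4s, and 8 of their markers summed to between 4.50 and 51.7 CPM, with Mcpt4 at 0 in every library. That sum was highest in sensitive replicate 2, where Ltc4s was highest and Hpgds lowest. Platelets are known for Tbxas1 and Ptgs1, and 8 platelet markers, with Gp1bb at 0 in every library, summed to between 93.6 and 433.4 CPM, highest in resistant replicate 2. Neither Tbxas1 nor Ptgs1 was highest there. The macrophage and Kupffer cell sum was highest in sensitive replicate 3, as were Tbxas1 and Hpgds, and next in sensitive replicate 2, where both were lowest. The part of each cell type in these values was not tested.

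The rest of the pathway was read from a list of 59 symbols, with 60 entries in the table since Dpep2 has 2. Of these, 40 passed the filter, 17 with a log2 fold change above 0 and 23 below, with a median of -0.15. None passed the adjusted threshold in edgeR or DESeq2. At an unadjusted p-value under 0.05, edgeR called 3 (Pla2g2d, Ggt5 and Cyp4f18), all lower in the resistant group, beside 2.54% of all genes, and DESeq2 called 6 in either direction, beside 4.74% of all genes. Groups did not overlap for 4 of the 40, beside 9.02% of all genes, and these were Pla2g2d, lower in the resistant group, and Daglb, Abcc1 and Abcc4, higher there (Daglb and Abcc4 are named after their values were seen). Genes at 0 counts in every library, also named for that after the values were seen, were Pla2g2f, Pla2g4e, Ptgdr, Alox8 and Alox12e.

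By role, the phospholipases and arachidonate-handling genes had 5 above 0 and 8 below among 13 tested. Pla2g7, which encodes platelet-activating factor acetylhydrolase, had the highest CPM of that role, from 1000.3 to 1705 (log2 fold change 0.026), and Pla2g15, a lysosomal phospholipase, came next, from 223.0 to 333.0 CPM (-0.12). Pla2g2d, a secreted phospholipase, was barely detected, with 13, 14 and 26 counts in the sensitive replicates and 1, 1 and 7 in the resistant ones (unadjusted p = 0.0276, edgeR adjusted p = 0.940). The other prostanoid synthases had 2 above and 3 below, with Akr1b3 at 0.09 and the cytosolic prostaglandin E synthase Ptges3 at -0.004 on the log2 scale of the difference. Prostanoid receptors had 2 above and 3 below, and of the prostaglandin E2 receptors, Ptger2 measured 30.5 to 44.7 CPM (log2 fold change -0.24) and Ptger4 9.47 to 18.2 CPM (-0.42).

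On the leukotriene side, Lta4h, which makes leukotriene B4, differed little between libraries, with 69.1, 42.05 and 61.5 CPM in the sensitive replicates and 57.4, 67.4 and 58.8 CPM in the resistant ones (log2 fold change 0.045, SE 0.209). Ggt5, which trims leukotriene C4 to D4, measured 25.3, 61.3 and 16.7 CPM and 22.1, 10.98 and 9.26 CPM (log2 fold change -1.43, SE 0.592, unadjusted p = 0.0463, edgeR adjusted p = 0.940). Sensitive replicate 2 was the highest library for Ggt5. The leukotriene B4 receptor gene Ltb4r1 measured 26.0, 83.0 and 2.53 CPM and 14.6, 5.92 and 1.98 CPM (log2 fold change -2.49, SE 1.20, edgeR adjusted p = 0.940), and Cysltr1, for a cysteinyl leukotriene receptor, had a log2 fold change of 0.046. Cyp4f18, which encodes an enzyme that inactivates leukotriene B4, measured 13.1, 29.4 and 4.28 CPM and 2.65, 5.21 and 1.51 CPM (log2 fold change -2.44, SE 0.811, unadjusted p = 0.0196, edgeR adjusted p = 0.940). Ltb4r1 and Cyp4f18, like the neutrophil markers, were highest in sensitive replicate 2. The mast cell and basophil sum and a sum of lymphocyte markers, of 2.90 CPM there, were also highest in that library. The part of neutrophils or other cells in these values was not tested.

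The other lipoxygenases were near the floor of detection or low, with Aloxe3 at 1.06 to 8.53 CPM (log2 fold change 1.37, SE 0.751) and Alox12 at 0.468 to 2.70 CPM (-0.84, SE 0.687). Among transport and breakdown genes, 4 were above 0 and 2 below. Abcc1, which exports leukotriene C4, measured 103.7, 38.0 and 96.8 CPM in the sensitive replicates and 107.6, 132.4 and 134.8 CPM in the resistant ones (log2 fold change 0.63, SE 0.338, edgeR adjusted p = 0.940). As with Pla2g4a, the resistant libraries were the 3 highest and sensitive replicate 2 the lowest. Ptgr1, which encodes an enzyme of the inactivation of prostaglandins and leukotriene B4, ran from 50.8 to 160.2 CPM (log2 fold change 0.30).

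The genes most like 3 of the 10 genes over the 6 libraries were taken from 9455 genes, by Pearson's r of log2 CPM, a description in which high values are easily reached with so few libraries. For Ptgs1 they were St3gal4 (0.969) and Atp13a2 (0.965). For Tbxas1 they were Pctp (0.980) and Mccc2 (0.976), and for Alox5ap they were Hibch (0.993) and Lrrk2 (0.984). Without sensitive replicate 2 the 6 values lay between 0.970 and 0.988. They were not computed without sensitive replicate 3, the highest library for Tbxas1.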

How the data were processed

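RNA-seq libraries of 3 sensitive and 3 resistant samples were grouped by their titles. Per the study's methods and the submitters' processing notes, reads were aligned with HISAT2 2.0.5 and counted with featureCounts 1.5.0-p3. The authors deposited raw counts and FPKM values, which divide the counts by the library total and a gene length. The notes name mm9, but these lengths equalled the exon unions of GENCODE M21 within 1 base for 97.86% of 13696 genes, and coordinates here are of GRCm38. A deposited table of the authors' own group means, fold changes and p-values was not used. Poly(A) selection and ribosomal RNA depletion are both named for the libraries.

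The groups were compared on counts with edgeR 4.0.16 (R 4.3.3), using filterByExpr, TMM, the robust quasi-likelihood test, two-sided, with Benjamini-Hochberg adjustment over 15474 genes and a threshold of 0.05. CPM printed are counts over library totals, while TMM-scaled CPM gave the overlap counts. Standard errors are those implied by the F statistic, and a prior count of 2 was added for log2 CPM. The steps were tested on simulated data. The 10 genes and all lists were chosen with earlier results of these data known. Named are these 10, the 2 pathway genes of each role with the highest mean CPM, and pathway genes with an unadjusted p-value under 0.05. Also named are the 2 genes most like the member with the highest mean CPM in each of 3 roles. Those 2 were taken from genes with a mean log2 CPM of at least 3. As alternatives, the fit was repeated with RLE factors, with no factors, with DESeq2 1.42.0, with limma 3.58.1 (voom and log2(FPKM + 1)), with other filters, with a replicate block and with each library left out, and levels with another gene length. Titles number replicates 1 to 3 in both groups. Same-numbered libraries, from different mice, correlated at -0.00093, 0.034 and 0.194 in their deviations from the group means and were not treated as paired.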

Additional observations from a re-analysis of the deposited data

How the results depend on the processing

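Of 139 log2 fold changes of the 10 genes under the alternatives, 128 had the same sign and call and 11 changed sign, in Ptgs1, Ptgs2, Hpgds and Tbxas1. For Ptgs1 the value was 0.062 with library totals alone, 0.027 on log2(FPKM + 1), 0.058 with no filter on low counts, and -0.26 to 0.14 with each library left out. For Tbxas1 it was 0.057 on log2(FPKM + 1) and -0.25 to 0.31 with each library left out. Leaving out each library gave -0.090 to 1.56 for Ptgs2 and -0.34 to 0.16 for Hpgds. With all 6 libraries, Ptgs2 also moved from 0.42 in the main fit to 1.12 in limma-voom and 1.03 with the replicate block. Adjusted p-values of the 10 genes over all alternatives were between 0.619 and 1.000. Of the 10 genes, 0 to 2 had an unadjusted p-value under 0.05 with each library left out: Ltc4s without sensitive replicate 1, where 3.76% of all genes did, and Alox5 and Alox5ap without sensitive replicate 3, where 6.53% did, against 3.08% with all libraries. Of the other pathway genes, 6 did so in DESeq2 (4.74% of all genes), 1 in limma-voom (2.40%), 6 of 55 with no filter (5.98%), and 1 (without resistant replicate 3, 1.03%) to 8 (without sensitive replicate 3, 6.53%) with each library left out. In the whole table DESeq2 called 24 genes and edgeR with no filter 2. The cause of these changes was not tested. With the replicate block, edgeR called 0 of the 10 genes on either p-value and 3 other pathway genes at the unadjusted threshold, and 467 genes of the table, and it changed no other call. Of the 6 libraries, 3 correlated best with their own number. Over the settings the median log2 fold change of all genes moved by at most 0.1. With lengths of the principal mRNA, chosen after seeing the data, the levels of Pla2g4a, Ptgs1, Hpgds and Tbxas1 were 23.8, 115.2, 27.2 and 105.2 CPM per kilobase. These levels kept the counts over all exons and can be too high. Ltc4s, with as few as 9 counts, is missing from the fit that needs 10 counts in every library, and depth limits its precision and that of Pla2g2d.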
